A study of Rattus norvegicus with 164 samples.

Results

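Astrocytes are the star-shaped support cells of the brain, and 10 of their marker genes were followed through RNA sequencing libraries of the rat prelimbic cortex: Gfap, Aqp4, Slc1a2, Slc1a3, Gja1, Gjb6, Aldh1l1, Sox9, S100b and Mlc1. They were chosen by name as astrocyte markers, are 10 of the 38354 genes in the deposited table, and all 10 passed the filter on low values. The question put to the data was which of these genes vary together from library to library, and how Gfap and S100b compare with the rest in their relation to myelin and to vessel genes. The animals were outbred heterogeneous stock rats, a population descended from several inbred founder strains, and the RNA sequenced was polyA RNA from the prelimbic area, which lies in the medial prefrontal cortex. The series as a whole was made for genetic analyses of several brain regions. No treatment, sex, age, litter or batch is given in the sources used here, so the only label that divides the 130 libraries is the kind of animal identifier. It is a decimal number in 68 libraries, a code that starts with E21DCD in 51, and a reassigned code of that kind in 11. Each library carries its own identifier, and the p-values measure the spread between these libraries. In such bulk tissue, fewer cells of a type and less RNA per cell cannot be told apart.

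Astrocytes take up glutamate and potassium released by neurons, supply metabolites, and wrap blood vessels with endfeet. The glutamate transporters Slc1a2 (GLT-1) and Slc1a3 (GLAST) clear transmitter from synapses. Aqp4 forms the water channel that the dystrophin complex anchors at the endfeet, Mlc1 is a membrane protein concentrated there, and Gja1 and Gjb6 encode connexin 43 and connexin 30, which join astrocytes through gap junctions. Gfap, the intermediate filament of the cytoskeleton, is strong in astrocytes of white matter and the brain surface, sparse in those of deep cortical grey matter, and rises in reactive astrocytes. S100b is a calcium-binding protein that oligodendrocytes also express. Aldh1l1 is an enzyme of folate metabolism, and Sox9 is a transcription factor of glial fate.

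The stretches upstream of 3 genes are shown, since Gfap and S100b are set against a transporter gene, Slc1a2, below. They come from RefSeq with build GRCr8, in which 9 of the 10 genes had an entry, and CpG dinucleotides are in capitals. The Gfap stretch is chr10:88361662-88361911 on the minus strand, the S100b stretch chr20:12381160-12381331 on the minus strand, and the Slc1a2 stretch chr3:109459859-109460108 on the plus strand. The S100b stretch is shorter because the rest of its window overlaps the annotated gene.
Gfap: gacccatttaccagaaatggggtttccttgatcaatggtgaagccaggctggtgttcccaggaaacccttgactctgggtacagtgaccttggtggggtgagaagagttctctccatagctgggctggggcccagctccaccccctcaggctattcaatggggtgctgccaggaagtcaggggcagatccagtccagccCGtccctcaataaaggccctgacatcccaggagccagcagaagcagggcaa
S100b: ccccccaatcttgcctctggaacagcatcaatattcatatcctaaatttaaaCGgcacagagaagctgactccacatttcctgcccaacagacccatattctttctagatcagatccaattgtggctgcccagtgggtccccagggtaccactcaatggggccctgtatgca
Slc1a2: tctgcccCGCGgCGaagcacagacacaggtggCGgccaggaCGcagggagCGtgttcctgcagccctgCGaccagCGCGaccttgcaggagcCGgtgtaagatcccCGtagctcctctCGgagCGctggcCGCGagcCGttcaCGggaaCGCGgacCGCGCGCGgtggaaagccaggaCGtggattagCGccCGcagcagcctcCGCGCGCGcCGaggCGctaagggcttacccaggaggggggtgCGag
The 250 bases upstream of Slc1a2 held 33 CpG, whereas the 250 bases upstream of Gfap held 1 and the 172 bases of S100b held 1 (5 in its whole window of 250). The median over all 33469 RefSeq windows of 250 bases was 5. The letters TTCNNNGAA, searched on both strands, were in 7.67% of all windows and in 0 of the 9 available for these genes, and TATAAA was in 12.93% and in 0 of 9.

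Levels are given as log2(CPM + 1), where CPM is the count per 1000000 counts of the library. Summed counts per library, in units of 1000000 counts, ranged from 15.1 to 55.95 with a median of 25.8. The dopamine receptor gene Drd2, a marker of striatal neurons, divided the libraries: 119 had a Drd2 level of at most 6 (highest 4.65) and are called cortical below, and 11, all of the decimal series, had a level above 6 (lowest 7.25). Among the 119, the libraries with a level of the interneuron gene Gad2 under 5 stood apart. There were 7 of them (decimal replicate 15 and E21DCD replicates 2, 4, 8, 19, 30 and 49), with Gad2 between 2.37 and 4.27 against a median of 6.21 over the 119. A count above 0 was found for 20738 genes in decimal replicate 15, 20516 in E21DCD replicate 30 and 21270 in E21DCD replicate 19, against at least 22643 in each of the 112 cortical libraries with a higher Gad2. In decimal replicate 15, 1 gene took 15.1% of all counts. Results are therefore given for the 119 cortical libraries and again for the 112 without these 7. Median-of-ratios scaling, an alternative to CPM, moved the median log2 level by -0.007 to 0.846 in the 7 libraries and by -0.067 to 0.108 in the 112.

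All 10 genes were present in every library. The cytoskeletal gene Gfap had a lowest level of 7.03, a median of 7.93 and a highest of 9.36 in the 119 cortical libraries. The corresponding values of S100b were 9.62, 9.99 and 11.27. Gfap thus spanned a wider range than S100b, and both had a long upper tail. Of the transporters, Slc1a2 ran from 9.61 through a median of 11.73 to 12.53, and Slc1a3 from 7.23 through 9.34 to 10.05. The endfoot genes had levels of 6.49, 8.44 and 9.37 for Aqp4 and 6.84, 8.04 and 9.09 for Mlc1. In these 4 genes 1 library, decimal replicate 15, lay far under all others. The connexin gene Gja1 had levels of 7.00, 8.42 and 9.13 (lowest, median and highest), and its relative Gjb6 had 4.45, 5.05 and 5.76. Aldh1l1 had 3.66, 4.41 and 5.07, and Sox9 had 3.80, 4.79 and 6.22. Levels of different genes are not compared here, since the values are not scaled for transcript length.

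**Figure D1:**
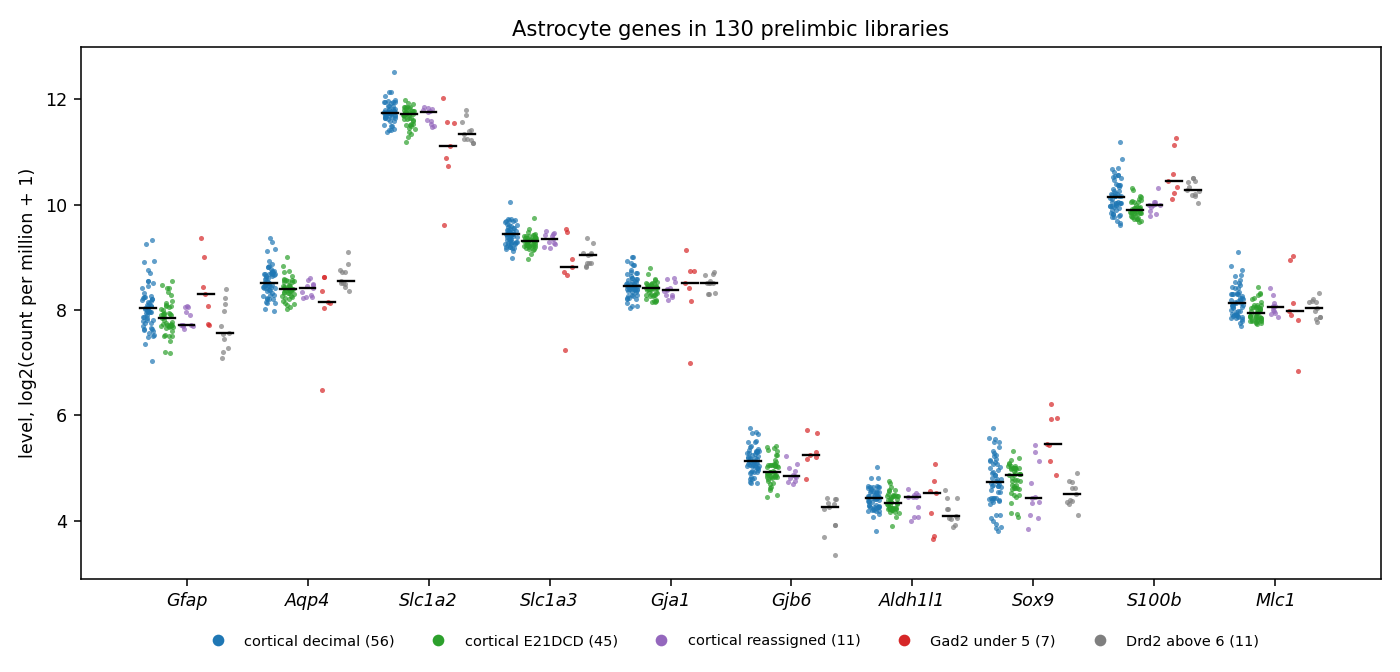
Level of each astrocyte gene (vertical axis, log2 of CPM plus 1) in 130 libraries; each point is 1 library, bars are group medians, and colours mark the decimal, E21DCD and reassigned cortical libraries, the 7 with Gad2 under 5 and the 11 with Drd2 above 6. Gjb6 is lower in the 11 libraries with high Drd2 than in all cortical libraries, and 1 red point lies far under the others for Aqp4, Slc1a2, Slc1a3, Gja1 and Mlc1.

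Gfap and Sox9 were the most variable of the 10. The SD of Gfap over the 119 libraries was 0.415, above that of 95.2% of the 500 genes nearest to it in mean level. The SD of Sox9 was 0.461, above 95.4% of such genes. Aldh1l1 had an SD of 0.223 and Gja1 of 0.240, in the middle of like genes (48.2% and 56.4% had a lower SD). Without the 7 libraries the SD of Slc1a2 was 0.187 in place of 0.295 and that of Slc1a3 0.175 in place of 0.280, while Gfap kept an SD of 0.389. Genes of like level also spread less without the 7: the median SD of the 500 nearest to Slc1a2 was 0.141 in place of 0.211. Slc1a2 lay above 79.0% of like genes with the 7 and 81.4% without, and Slc1a3 above 76.4% and 74.2%. The smaller spread of the transporters was thus shared by genes of like level. Gfap spread nearly as much as with the 7 and lay above 99.4% of like genes without them.

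In the 11 libraries with high Drd2, Gjb6 ran from 3.36 to 4.44 with a median of 4.26, under the lowest of the 119 cortical libraries (4.45). S100b lay above the cortical median in all 11, from 10.04 to 10.51, with a median of 10.27 against 10.16 in the decimal cortical libraries. Aqp4 lay above the cortical median in 10 of 11, with medians of 8.54 and 8.51. Slc1a2, Slc1a3 and Sox9 were each under the cortical median in 10 of 11, and Gfap in 7. The other members overlapped widely with the cortical range. The share of all genes that separated or shifted in this way was not counted. These values thus do not show a trait particular to the members. Beside this, the summed level of 8 striatal neuron genes, Drd2 among them, was 4277 to 6428 CPM in the 11 and 242 to 684 in the 112. Since Drd2 set the 11 apart, this sum was partly fixed by the split. The sum of the 14 myelin genes was 13420 to 25999 in the 11 and 1278 to 23235 in the 112. In the 7 libraries with low Gad2 the striatal sum was 209 to 434 and the myelin sum 3228 to 13881. The part of these in the levels of the astrocyte genes was not tested.

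The 7 libraries with low Gad2 did not move the 10 genes alike. Slc1a2 in them ran from 9.61 to 12.03 and Slc1a3 from 7.23 to 9.53, and 4 of the 7 lay under the lowest of the other 112 for each of these genes. S100b ran from 10.11 to 11.27 in the 7, all above the median of the 112 (9.99). Sox9 ran from 4.87 to 6.22, with 3 of the 7 above the highest of the 112. In the 7, then, the transporters were mostly low while S100b and Sox9 were high. How many of all genes lay outside the range of the 112 in these libraries was not counted. Decimal replicate 15 had the lowest levels of all 130 for Slc1a2 (9.61), Slc1a3 (7.23), Aqp4 (6.49), Gja1 (7.00) and Mlc1 (6.84). In the same library Gfap was at 8.43, S100b at 10.58 and Aldh1l1 at 5.07, the highest Aldh1l1 level of all.

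The 10 genes tended to rise and fall together. Of the 45 pairs, 44 had a Pearson r above 0 over the 119 cortical libraries, with a median r of 0.43, and 18 had an r of at least 0.5. With the 7 left out all 45 were above 0, the median was 0.57 and 31 reached 0.5. Leaving out decimal replicate 15 alone gave a median of 0.55 and 27 such pairs. In a linear model for every gene on the level of 1 member (limma, Benjamini-Hochberg adjusted p under 0.05 over all genes tested), 74 of the 90 ordered pairs of members passed with a positive slope, and 84 without the 7. The number has to be read against the share of all genes that passed, which is given for each member below and was often high.

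**Figure D2:**
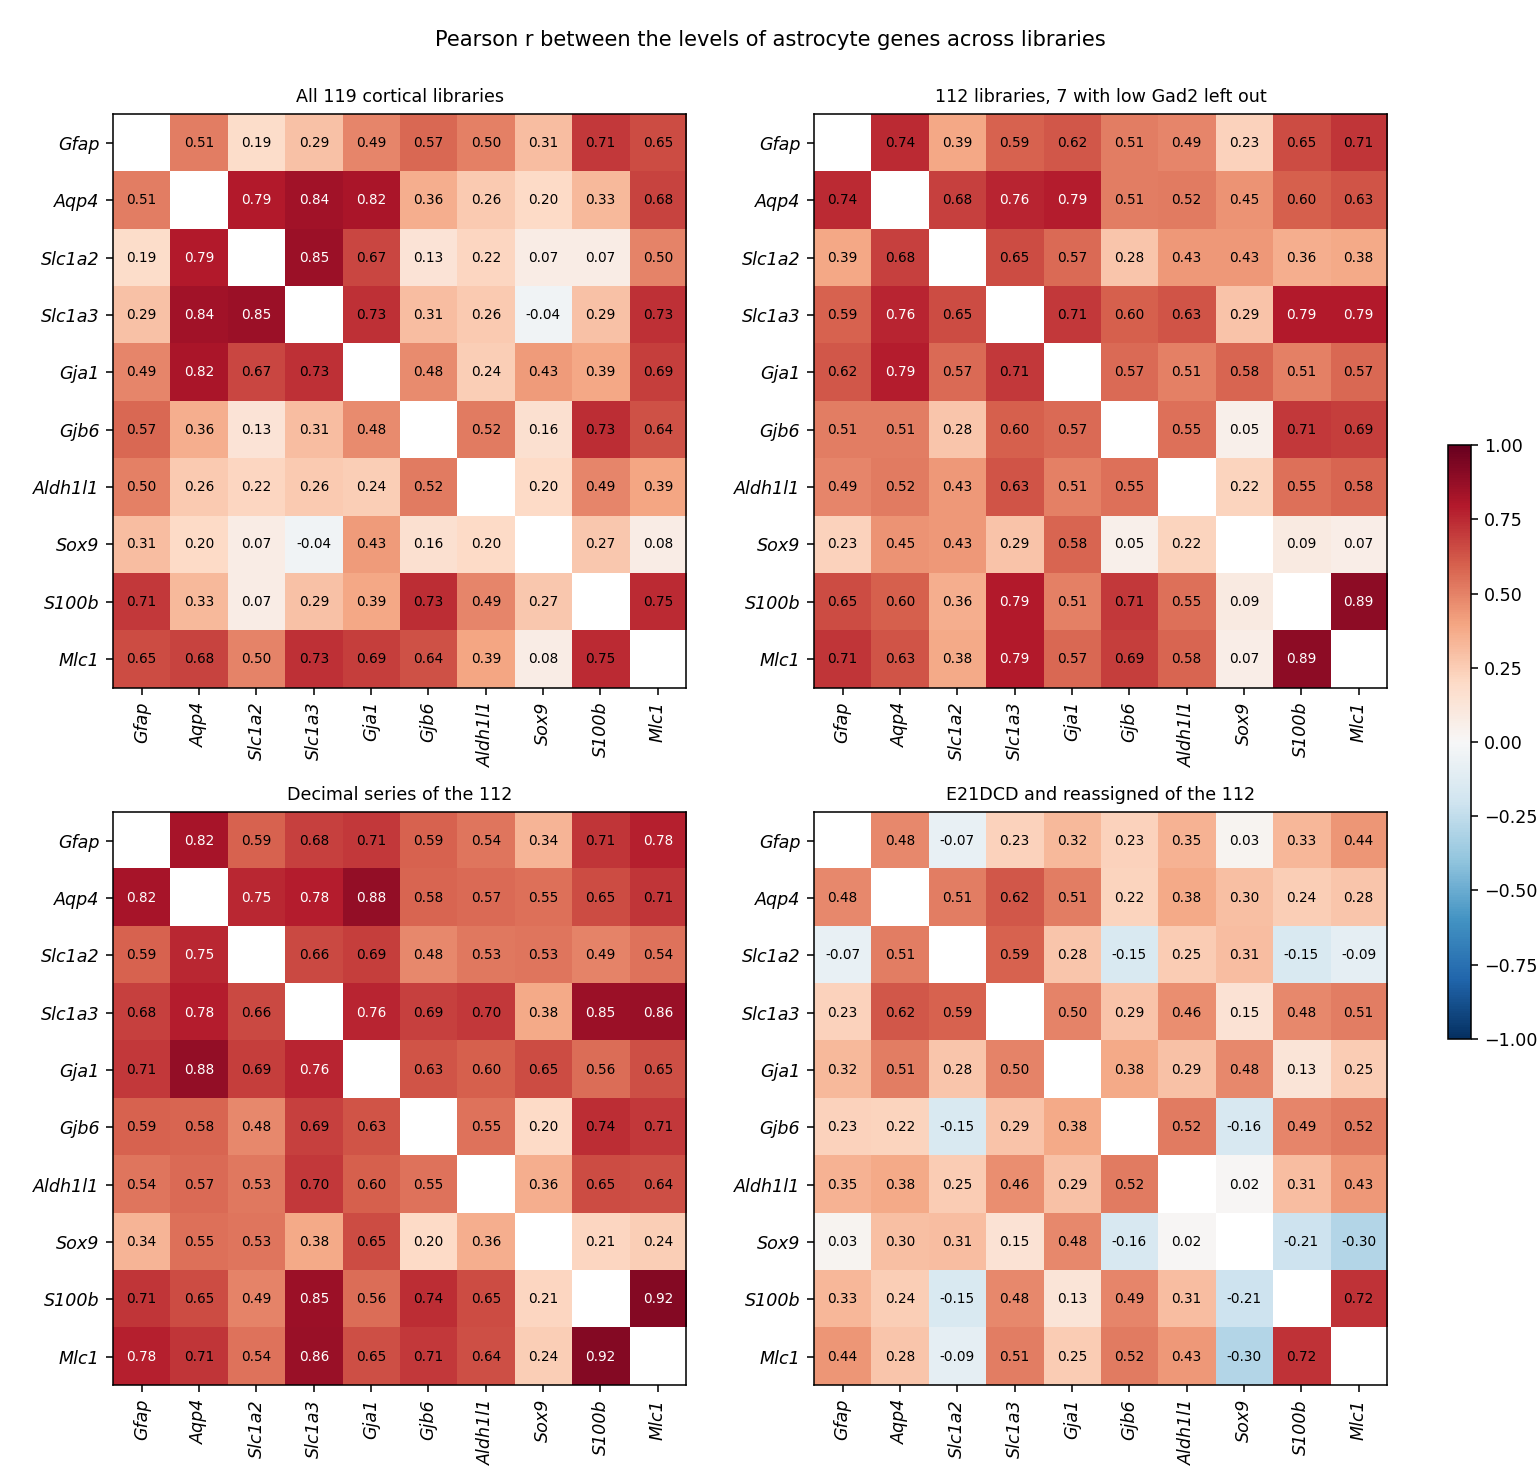
Pearson r between the levels of each pair of astrocyte genes, in all 119 cortical libraries, in the 112 without low Gad2, and in the decimal and the other libraries of the 112; red is positive and blue negative. The block of high values widens without the 7 libraries and is paler in the E21DCD and reassigned libraries, where 7 of 45 pairs are under 0.

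Gfap was closest to S100b in the 119 libraries and to Aqp4 in the 112. With S100b it had r = 0.71 and Spearman's rho = 0.56 (permutation p = 1e-05 for each, the smallest that 100000 permutations can give; limma adjusted p = 5.128e-17, n = 119). The r was 0.67 without the 2 libraries farthest from the median of Gfap and 0.65 without the 7. With Aqp4, r was 0.51 and rho 0.59 (permutation p = 1e-05 for each, limma adjusted p = 2.741e-08), and r rose to 0.74 without the 7. Gfap with Slc1a2 gave the lowest value, r = 0.19 (permutation p = 0.046, limma adjusted p = 0.0654), which became 0.39 without the 7. In all, 8 of 9 members passed in the fit on Gfap, where 26.9% of all genes passed, and 9 of 9 without the 7 (28% of all genes). The lowest r of Gfap over the 112 was with Sox9, 0.23 (rho = 0.12, permutation p = 0.0144 and 0.196), and it was 0.11 without the 2 libraries farthest from the median of Gfap.

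S100b had its highest r with Mlc1, at 0.75 (rho = 0.76, permutation p = 1e-05 for each, limma adjusted p = 1.844e-21). The value without the 7 libraries was 0.89. With Gjb6 it was 0.73 and 0.71. The pairs of S100b with the transporters depended on the 7 libraries. S100b with Slc1a3 had r = 0.29 over 119 libraries (rho = 0.56, permutation p = 0.00504 and 1e-05, limma adjusted p = 0.00212) and r = 0.79 over 112. With Slc1a2 the r was 0.073 (permutation p = 0.414, limma adjusted p = 0.479), and 0.36 without the 7 (limma adjusted p = 0.000186). In the fit on S100b 8 of 9 members passed in both sets; 31.7% of all genes passed over 119 libraries and 34.4% over 112. The member that failed was Slc1a2 in the larger set and Sox9 in the smaller.

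**Figure D3:**
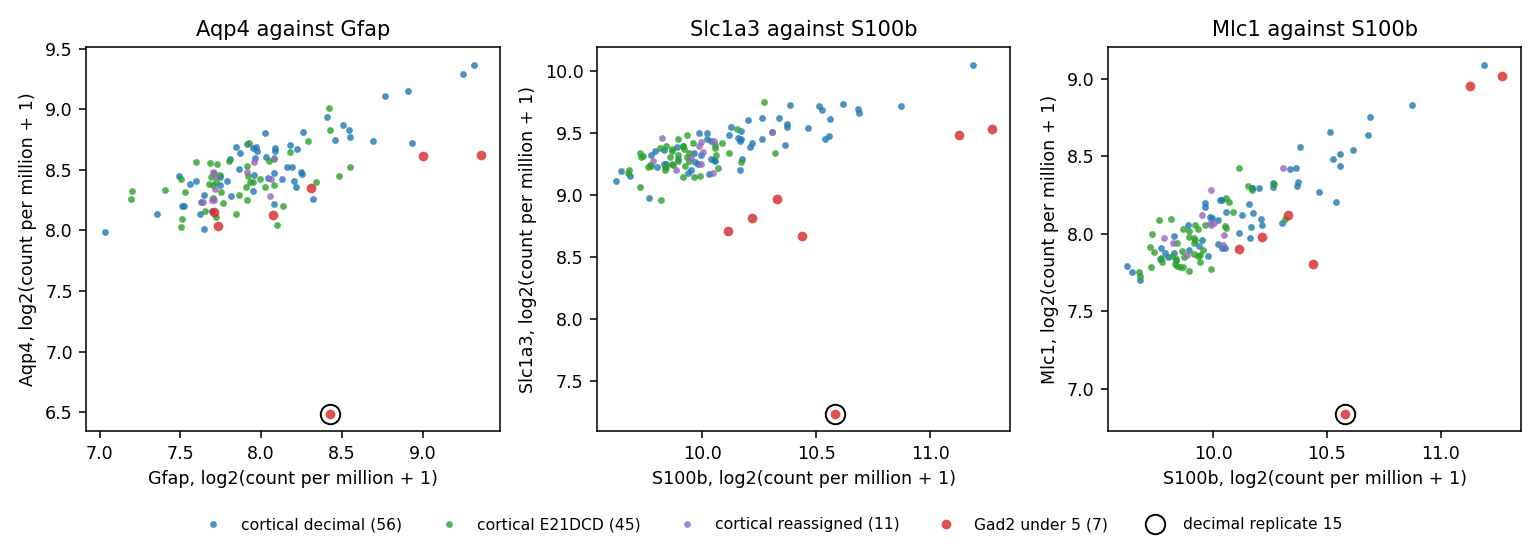
Level of Aqp4 against Gfap, and of Slc1a3 and Mlc1 against S100b (both axes log2 of CPM plus 1), 1 point per cortical library, coloured by series, with the 7 libraries of low Gad2 in red and decimal replicate 15 ringed. The ringed library lies far under the other points in all 3 panels.

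The 3 highest r over the 119 libraries were all between genes of membrane proteins. Slc1a2 and Slc1a3 had r = 0.85 (rho = 0.63, permutation p = 1e-05 for each, limma adjusted p = 5.961e-33), Aqp4 and Slc1a3 r = 0.84, and Aqp4 and Gja1 r = 0.82. Over the 112 libraries these were 0.65, 0.76 and 0.79. All 3 were thus lower without the 7, among them decimal replicate 15 with its low values. In the fit on Aqp4 9 of 9 members passed in both sets, with 50.9% and then 26% of all genes. For Slc1a2 it was 5 of 9 with 54.4% of all genes and 9 of 9 with 22.5%. For Slc1a3 it was 8 of 9 with 58.8% and 9 of 9 with 28%, and for Gja1 9 of 9 with 39.3% and 9 of 9 with 24.6%. Over the 119 libraries most of the genes tested passed with Aqp4, Slc1a2 and Slc1a3, and over the 112 a minority did while all 9 members passed.

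The remaining members ranged from close to nearly separate. Mlc1, the endfoot membrane protein, passed with 8 of 9 members in both sets (38.6% and 33.9% of all genes). Gjb6 passed with 7 and then 8 of 9 members (27.8% and 28.2% of all genes). Aldh1l1 passed with 8 and then 9 (15.1% and 22.6%). By number of calls Sox9 stood farthest out, with 4 and then 6 of 9 (16.1% and 18.5%), above the share of all genes in both sets. In the fit on Slc1a2 over the 119 libraries, by contrast, members passed about as often as all genes did (54.4%). Its highest r was with Gja1, at 0.43 over 119 libraries (rho = 0.53, permutation p = 1e-05 for each, limma adjusted p = 6.146e-06) and 0.58 over 112. With Mlc1 its r was 0.076 and 0.070, and with Slc1a3 -0.0375 and 0.29. With Aqp4 it was 0.45 and with Slc1a2 0.43 over 112. Sox9 thus had the fewest calls of the 10 in both sets, with more of them over the 112 libraries.

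The median r between members was higher in the decimal series than in the other libraries. Among the 112 libraries, the median over the 45 pairs was 0.65 in the 56 decimal libraries, where 37 pairs had an r of at least 0.5, and 0.31 in the 56 E21DCD and reassigned libraries, where 8 did and 7 were under 0. Gfap with Aqp4 had an r of 0.82 in the decimal and 0.48 in the other libraries. Gfap with Slc1a2 had 0.59 and -0.073, and S100b with Mlc1 0.92 and 0.72. The level of S100b ran from 9.62 to 11.19 in the 56 decimal libraries (SD 0.319) and from 9.67 to 10.32 in the 56 others (SD 0.146). The part of this range in the lower r was not tested. A difference in slope was tested with a term for series by member level, added after the data were seen. On Gfap, 0 of 9 members had a steeper slope in the decimal series over 119 libraries by limma (0 also at an unadjusted p under 0.05; 0.225% of all genes did). It was 1 of 9, Aqp4, without decimal replicate 15 alone (5.48% of all genes), and 2 of 9, Slc1a2 and S100b, without the 7 (1.34%). On S100b it was 0 of 9 in both sets (1 and 2 at an unadjusted p under 0.05; 9.79% and 1.01% of all genes), but 3 of 9 without decimal replicate 15 alone, namely Slc1a3, Slc1a2 and Aqp4 (26.9% of all genes). On Aqp4 it was 0 of 9 (1 at an unadjusted p under 0.05; 10.3% of all genes) and, without the 7, 3 of 9, Mlc1, S100b and Gja1 (6.02%), while Aldh1l1 had a shallower slope over the 119 (-0.49 ± 0.15 SE, limma adjusted p = 0.021; 0.833% of all genes did), which was not called without decimal replicate 15 (limma adjusted p = 0.456). The limma adjusted p ranged from 0.0175 to 0.039 for the 5 members called without the 7.

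Over the 119 and over the 112 libraries, pooled across the series, all 10 genes rose with myelin. The score is the mean z-score of 14 myelin genes such as Mbp, Mog and Mag, and slopes are in log2 units per SD of the score. In the fit on myelin 10 of 10 members passed with a positive slope over 119 libraries, where 28% of all genes did, and 10 of 10 over 112, where 28.2% did. Gfap had the steepest slope, 0.25 ± 0.03 (SE, limma adjusted p = 5.08e-12), with r = 0.60, rho = 0.49 and r = 0.54 without the 2 most distant libraries (permutation p = 1e-05). Mlc1 had the highest r, 0.65, with a slope of 0.20 ± 0.02 (limma adjusted p = 2.29e-14). S100b had r = 0.56 and a slope of 0.17 ± 0.02 (limma adjusted p = 4.004e-10). At the other end, Aldh1l1 had r = 0.23 with a slope of 0.051 ± 0.02 (limma adjusted p = 0.0265), Sox9 r = 0.26 and Slc1a2 r = 0.27. Gfap, Mlc1 and S100b therefore led in their relation to myelin, while Aldh1l1, Sox9 and Slc1a2 came last; without the 7 libraries the values were 0.62, 0.68 and 0.58 against 0.33, 0.21 and 0.40.

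This rise was not shared by both series, and its order held less well within each. In the E21DCD and reassigned libraries the slopes of Aqp4, Slc1a2 and Slc1a3 on myelin were negative, as the closing section gives. In the 57 decimal cortical libraries the r with myelin was 0.68 for Gfap, 0.69 for Mlc1, 0.50 for S100b and 0.66 for Aqp4. In the 62 E21DCD and reassigned libraries it was 0.45, 0.53, 0.52 and -0.0845 for the same genes. Only 4 of 10 members passed in the fit on myelin in those 62 (28.7% of all genes), and 1 of 10 once the 6 low-Gad2 libraries among them were left out (14.4%). The slope itself differed between the series for 4 of 10 members, steeper in the decimal series: Aqp4 by 0.28 ± 0.05 (SE, limma adjusted p = 6.93e-06), Slc1a2 by 0.25 ± 0.05, Slc1a3 by 0.20 ± 0.05 and Gja1 by 0.125 ± 0.04. Of all genes, 30.4% had a steeper slope on myelin in the decimal series. Over the 112 libraries it was 7 of 10 members, adding Gfap, Sox9 and S100b, against 8.8% of all genes. The mean level of the 14 myelin genes had an SD of 0.724 in the 57 decimal libraries and 0.603 in the 62 others.

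Over the 119 and over the 112 libraries all 10 genes also rose with endothelial genes. In the fit on the score of 16 endothelial genes, such as Cldn5, Pecam1 and Flt1, 10 of 10 members passed in both sets (33.2% of all genes over 119 libraries, 25.9% over 112). The highest r were those of Aqp4 at 0.70 (slope 0.22 ± 0.02 SE, limma adjusted p = 1.9e-17), Slc1a3 at 0.69 and Slc1a2 at 0.69, each with a permutation p of 1e-05. Gfap had an r of 0.55 and S100b of 0.47, and Sox9 had the lowest at 0.26 (permutation p = 0.00535, limma adjusted p = 0.0129). Over the 112 libraries the members lay closer together, from 0.39 for Sox9 to 0.67 for Slc1a3, with Gfap at 0.62 and S100b at 0.59. By series, Aqp4 had an r with the endothelial score of 0.74 in the decimal and 0.54 in the other cortical libraries, and Gfap 0.55 and 0.52. Not all 10 members passed in the E21DCD and reassigned libraries without low Gad2, as the closing section gives.

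Mural genes, those of pericytes and smooth muscle, gave a like but weaker picture. In the fit on 12 mural genes 9 of 10 members passed over 119 libraries (39.3% of all genes) and 10 of 10 over 112 (21.7%). The r was 0.58 for Aqp4 and Slc1a3 and 0.21 for S100b (limma adjusted p = 0.041), and Sox9 did not pass (r = 0.15, limma adjusted p = 0.162). Without the 7 the values were 0.49 for Aqp4, 0.50 for Slc1a3, 0.31 for S100b and 0.26 for Sox9 (limma adjusted p = 0.021). S100b was thus among the members least tied to mural genes in either set.

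When myelin and endothelial scores entered 1 model, the members divided. With the endothelial score held, 5 of 10 members still rose with myelin over the 119 libraries (24.7% of all genes): Gfap by 0.18 ± 0.03 per SD (SE, limma adjusted p = 5.32e-06), S100b by 0.14 ± 0.03, Mlc1 by 0.12 ± 0.02, Gjb6 by 0.076 ± 0.02 and Gja1 by 0.0445 ± 0.02 (limma adjusted p = 0.0386). Slc1a2 had a slope of -0.037 ± 0.02, Slc1a3 of -0.017 ± 0.02 and Aldh1l1 of -0.0083 ± 0.02, none past the threshold. Over the 112 libraries 6 of 10 passed (20.7% of all genes), Aqp4 being the addition. With the myelin score held, 9 of 10 rose with the endothelial score (40.1% of all genes), all but Sox9, and 10 of 10 without the 7 (16.8%). Slc1a2 had the steepest of these slopes, 0.22 ± 0.02 (limma adjusted p = 1.05e-14), and S100b the shallowest that passed, 0.073 ± 0.03 (limma adjusted p = 0.0178). In the pooled libraries the transporters, Aldh1l1 and, over the 119, Aqp4 thus passed with the endothelial score only. There Gfap, S100b, Mlc1 and both connexin genes followed both scores. The model held no term for series. In the decimal series alone 1 of 10 members passed on myelin with the endothelial score held (4.22% of all genes). In the E21DCD and reassigned libraries without low Gad2 it was also 1 of 10, and the share of all genes is not given here. The calls that divided the members thus came from the pooled libraries. Each series alone holds fewer libraries, so the lower counts do not show a loss particular to the members.

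Pairs of members were also compared with both scores held, as a partial r with no test. Gfap and S100b had a partial r of 0.52 over 119 libraries and 0.36 over 112, and S100b and Mlc1 0.59 and 0.81. Gfap with Aqp4 had 0.16 and 0.53, and S100b with Slc1a3 had -0.025 and 0.66. Slc1a2 with Slc1a3 had 0.72 and 0.39, and Gfap with Slc1a2 -0.30 and -0.046. S100b and Mlc1 thus stayed close at equal myelin and endothelial scores, and Gfap and Slc1a2 did not rise together.

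**Figure D4:**
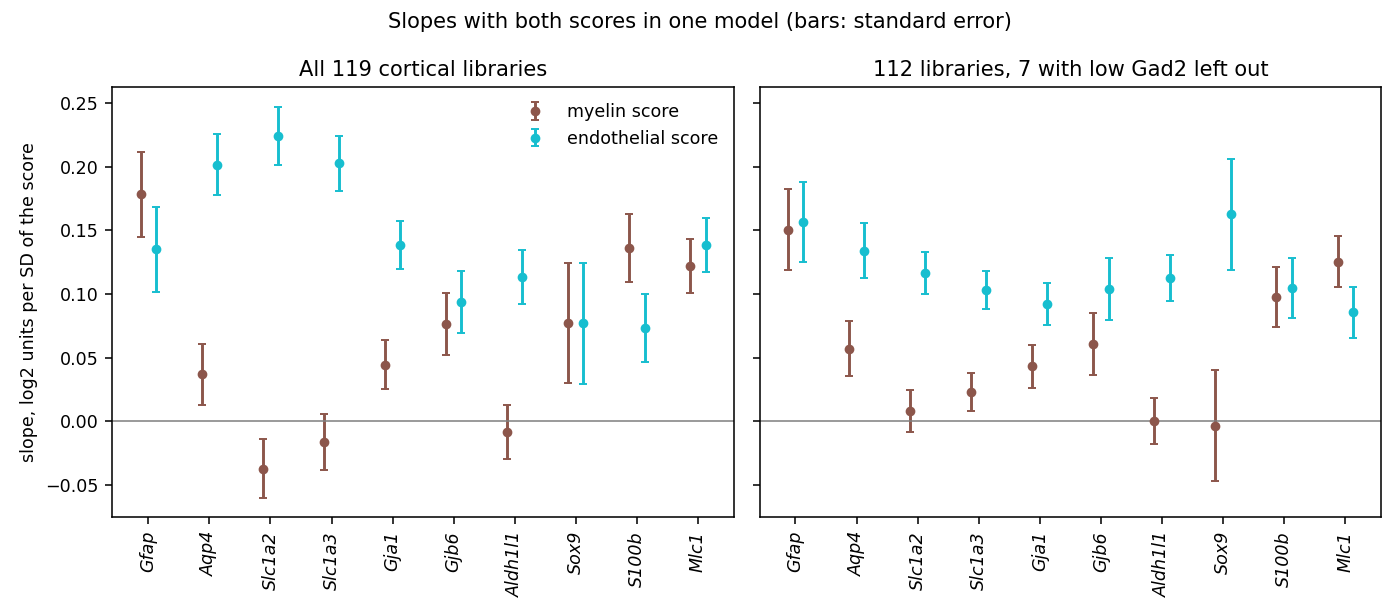
Slope of each astrocyte gene on the myelin and on the endothelial score from 1 model with both (vertical axis, log2 units per SD of the score; bars are standard errors), in 119 and in 112 cortical libraries. Myelin slopes of Gfap, S100b and Mlc1 lie well above 0 and those of Slc1a2, Slc1a3 and Aldh1l1 near 0, in both panels.

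The difference between Gfap or S100b and each other member was tested on z-scores. On myelin, 4 of 9 members had a lower slope than Gfap: Aldh1l1 by 0.37 ± 0.09 SD per SD (SE, limma adjusted p = 0.00017), Sox9 by 0.35 ± 0.11, Slc1a2 by 0.33 ± 0.11 and Slc1a3 by 0.28 ± 0.11 (limma adjusted p = 0.0137). Nearly all genes lie lower than Gfap here (88.2%). In the 112 it was 3 of 9, with Slc1a3 no longer called (86.4% of all genes). The same 4 members were lower than S100b on myelin (86.2% of all genes), and without the 7 only Aldh1l1 and Sox9 were, 2 of 9 (84.7%). For Aqp4, Gja1, Gjb6 and Mlc1 no difference from Gfap or S100b on myelin passed in either set. The difference of Mlc1 from Gfap was 0.05 ± 0.09, that is, within its error, and that of Aqp4 was -0.15 ± 0.10.

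On endothelial genes few differences from Gfap or S100b passed. Sox9 alone was lower than Gfap, 1 of 9 (-0.30 ± 0.11 SE, limma adjusted p = 0.00915; 77% of all genes). Higher than S100b were Aqp4, by 0.24 ± 0.11 (limma adjusted p = 0.042), and Mlc1, by 0.21 ± 0.07 (limma adjusted p = 0.00487), 2 of 9 against 1.43% of all genes. Neither of these passed without the 7 libraries, 0 of 9 in limma (0 at an unadjusted p under 0.05) against 0.225%, nor without decimal replicate 15 alone. The slope on the endothelial score was shallower in the decimal series for 1 of 10 members, Aldh1l1 (-0.15 ± 0.04 SE, limma adjusted p = 0.00901; 0.496% of all genes). That difference was -0.054 ± 0.04 (limma adjusted p = 0.43) without the 7 and -0.093 (limma adjusted p = 0.0825) without decimal replicate 15 alone. Under median-of-ratios scaling none of these 4 calls held (limma adjusted p = 0.0552 for Sox9, 0.524 for Aqp4, 0.285 for Mlc1 and 0.501 for Aldh1l1).

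S100b had a higher r with microglial genes than with myelin or vessel genes, a difference that was not tested. The r of S100b with the score of 12 microglial genes was 0.84 over 119 libraries (rho = 0.80, permutation p = 1e-05 for each), 0.82 without the 2 most distant libraries and 0.84 over 112. It was 0.84 in the 57 decimal and 0.81 in the 62 other cortical libraries, and 0.65 in the 56 of these without low Gad2. Mlc1 had r = 0.75, Gjb6 0.70 and Gfap 0.69 with the same score, and Slc1a2 had 0.14 (permutation p = 0.122). Leaving out the 7 moved Slc1a3 from 0.37 to 0.73 and Slc1a2 from 0.14 to 0.32. The part of microglial RNA in the levels of these genes was not tested.

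**Figure D5:**
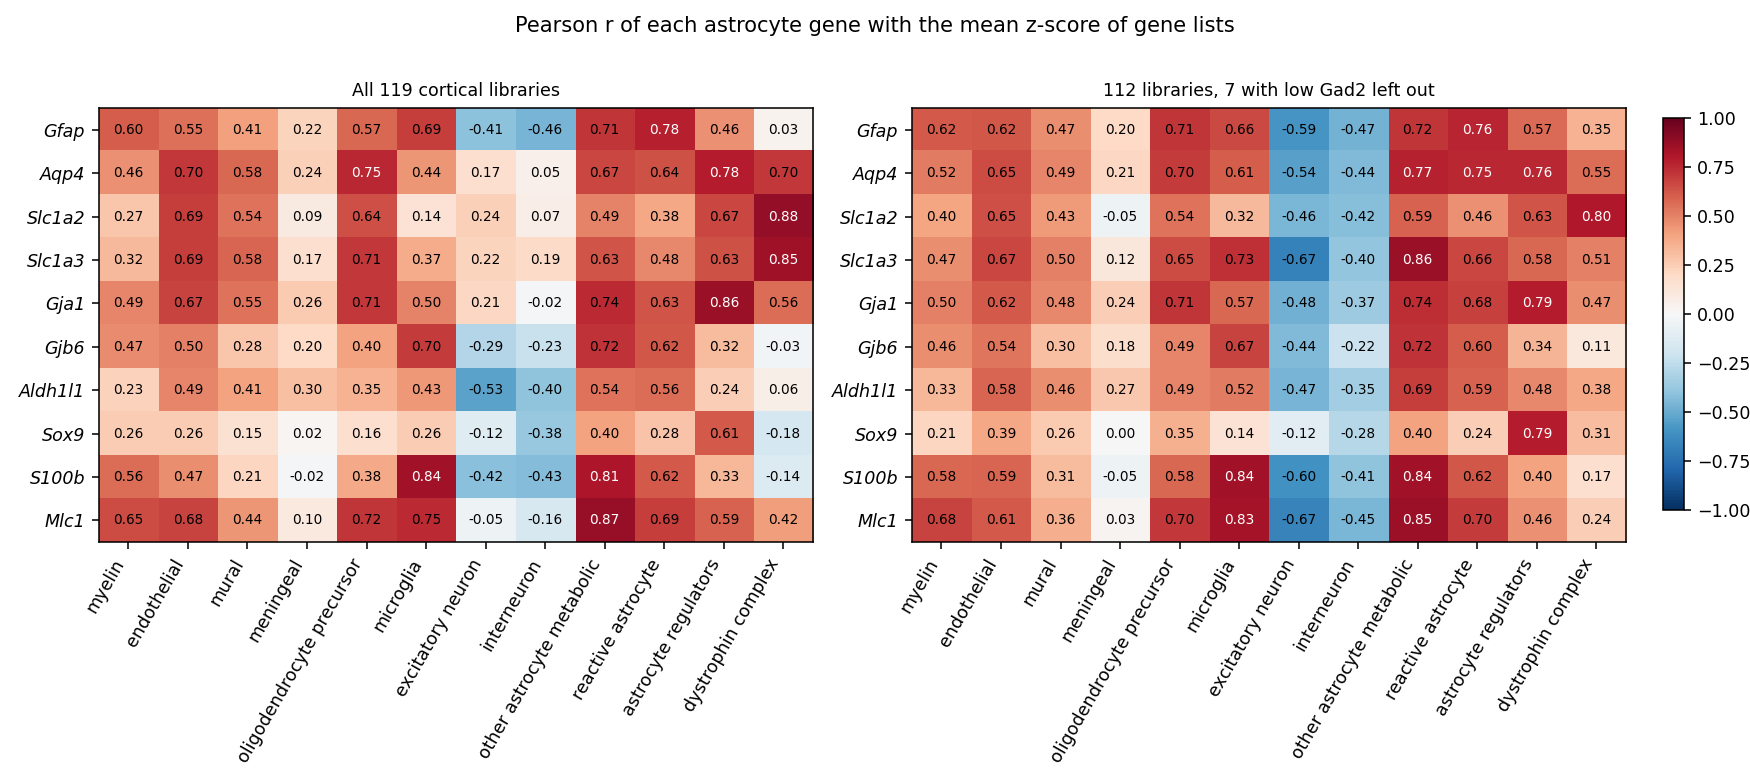
Pearson r of each astrocyte gene (rows) with the mean z-score of gene lists (columns), over 119 and over 112 cortical libraries; red is positive and blue negative. S100b and Mlc1 are highest with microglial and other astrocyte genes, Gfap with reactive astrocyte genes, Slc1a2 with the dystrophin complex, and Gja1 and Sox9 with astrocyte regulators.

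Other astrocyte genes moved with Gfap and S100b in large numbers. Of 30 genes of astrocyte metabolism and transport, 25 rose and 0 fell in the fit on Gfap, with a median r of 0.53, and 26 rose and 1 fell on S100b, with a median of 0.62. The medians over all genes were -0.045 for Gfap and -0.063 for S100b. Of all genes 26.9% rose and 33% fell with Gfap, and 31.7% rose and 39.5% fell with S100b. The highest with Gfap was Clu (clusterin, r = 0.74) and the highest with S100b was Ndrg2 (r = 0.90), while the GABA transporter gene Slc6a11 was lowest with both (-0.024 and -0.19). Of 18 listed genes of reactive astrocytes 14 were tested, since Serpina3n, Lcn2, Aspg and Cxcl10 had a mean level under 1. Of the 14, 12 rose with Gfap (median r = 0.39) and 8 with S100b (0.24). The filament gene Vim led with Gfap (r = 0.66) and the metallothionein gene Mt2A with S100b (r = 0.76), and Steap4 (0.12) and C3 (0.069) came last. Of 17 regulators, 13 rose and 1 fell with Gfap, and 9 rose and 2 fell with S100b; Id3 (0.64) and Id1 (0.68) led, and Nfib was lowest with both (-0.21 and -0.44).

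Genes of the dystrophin complex, the anchor of Aqp4, parted the members most clearly in the 119 libraries. Of 9 such genes 7 rose and 0 fell with Aqp4, where 50.9% of all genes rose and 10.3% fell. With Gfap 2 rose and 2 fell (26.9% and 33% of all genes), and with S100b 2 rose and 4 fell (31.7% and 39.5%). The score of these genes had an r of 0.88 with Slc1a2 and -0.14 with S100b. Kcnj10, the potassium channel gene also counted among the 30, was highest with Gfap (r = 0.54), and Agrn (agrin) was lowest with both (-0.40 and -0.61). In the 112 libraries 5 of 9 rose and 1 fell with Gfap, 4 rose and 3 fell with S100b, and 5 rose and 1 fell with Aqp4. Of all genes 28%, 34.4% and 26% rose in these fits. The score had r = 0.80 with Slc1a2 and 0.17 with S100b. The contrast was thus smaller over the 112 libraries, and its sign for S100b changed.

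Of all genes 26.9% rose with Gfap, 31.7% with S100b and 50.9% with Aqp4 over the 119 libraries. Of the lists of other cells, all 14 myelin genes rose with Gfap, with S100b and with Aqp4, and 12 of 12 microglial genes rose with Gfap and 11 with S100b. Tyrobp (0.60) led the microglial genes with Gfap and C1qb (0.80) with S100b, and Itgam was lowest with both (0.24 and 0.028). Mbp (r = 0.67) led the myelin genes with Gfap and Ermn (0.46) came last, and Aspa (0.70) and Myrf (0.36) were highest and lowest with S100b. Of 16 endothelial genes 12 rose with Gfap and 10 with S100b, led by the tight-junction gene Cldn5 with both (0.68 and 0.74); Kdr was lowest with Gfap (0.12) and Ptprb with S100b (-0.14). Of 12 mural genes 7 rose with Gfap, from Rgs5 (-0.057) to Tagln (0.48), and 4 rose and 1 fell with S100b, Higd1b being highest (0.68) and Myh11 lowest (-0.30). Of 8 genes of oligodendrocyte precursors 6 rose with Gfap, led by Bmp4 (0.68), and 4 with S100b, led by C1ql1 (0.69), Pdgfra being lowest with both (0.11 and -0.082). Of 12 meningeal genes 4 rose with Gfap, from Lum (-0.071) to Aebp1 (0.47), and 0 with S100b, from Col3a1 (-0.19) to Igfbp2 (0.15). Of 6 blood genes 5 rose with Gfap and 6 with S100b, led by Hbb-b1 (0.46) and Hba-a2 (0.65), with Hba-a3 lowest (0.15 and 0.29). Of 3 ependymal genes 2 rose with each, Rarres2 being highest (0.56 and 0.76) and Dynlrb2 lowest (0.055 and 0.17). Of 7 striatal neuron genes 2 rose with Gfap and 3 with S100b, Ppp1r1b being highest (0.48 and 0.57). The counts of meningeal and striatal genes with Gfap, and of mural genes with S100b, were near the share of all genes.

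Of 10 genes of excitatory neurons 9 fell with Gfap and 7 with S100b over 119 libraries, against 33% and 39.5% of all genes, and 0 rose with either. Camk2a was highest with both (r = 0.19 and 0.16). Of 8 interneuron genes 5 fell with Gfap and 4 with S100b, Gad1 being lowest (-0.54 and -0.71) and Pvalb highest (0.27 and 0.57). With Aqp4, 3 excitatory genes rose and 1 fell over 119 libraries, and 1 rose and 7 fell over 112, where 26.2% of all genes fell. Of the interneuron genes 2 rose and 1 fell with Aqp4 over 119, and 1 rose and 6 fell over 112. Of all genes 50.9% rose and 10.3% fell with Aqp4 over 119, and 26% rose over 112.

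The genes most like each of 3 members, by Pearson r over 119 libraries among genes with a mean level of at least 3, were different for each. Those nearest to Gfap were Plekhb1 (r = 0.76), Cenpb (0.76), Zcchc24 (0.75), Uap1l1 (0.75), Psat1 (0.75), an enzyme of serine synthesis, and Lgi4 (0.75). Those nearest to S100b were Ndrg2 (0.90), Gsta1 (0.90), S100a16 (0.90), Plaat3 (0.90), Aldoc (0.89), the aldolase of astrocytes, and the ribosomal protein gene Rplp0 (0.89). Those nearest to Aqp4 were Galnt1 (0.90), Septin2 (0.88), Klhl5 (0.88), Ednrb (0.88), the endothelin receptor B, Epb41l2 (0.87) and Erbin (0.86). None of these 18 was a member. Over the 112 libraries the first for each were Gprc5b with Gfap (0.80), Ttyh1 with S100b (0.91) and again Galnt1 with Aqp4 (0.84), and Mlc1 came sixth with S100b (0.89).

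Of the 10 genes 2 were higher in the decimal than in the E21DCD cortical libraries. Gjb6 was higher by 0.17 ± 0.05 log2 units (SE, limma adjusted p = 0.0214, n = 57 and 51) and S100b by 0.18 ± 0.06 (limma adjusted p = 0.0441, and 0.059 under median-of-ratios scaling). Of all genes 5.28% were higher and 3.48% lower in the decimal series. Gfap had a difference of 0.15 ± 0.08 (limma adjusted p = 0.256) and Sox9 of -0.13 ± 0.08 (limma adjusted p = 0.355). Once the 7 were left out, 6 of 10 were higher: S100b by 0.25 ± 0.05 (limma adjusted p = 9.69e-05), Mlc1 by 0.21 ± 0.05, Gjb6 by 0.21 ± 0.05, Gfap by 0.20 ± 0.08, Aqp4 by 0.14 ± 0.05 and Slc1a3 by 0.12 ± 0.03. Of all genes 19.2% were then higher and 15% lower, so much of the table shifted as well. Leaving out decimal replicate 15 alone also gave 6 of 10, namely Aqp4, Gjb6, Mlc1, S100b, Slc1a2 and Slc1a3 (10.5% of all genes). The mean level of the myelin genes had a median of 7.11 in the 57 decimal and 6.57 in the 62 other cortical libraries. With the myelin score as a covariate 0 of 10 members passed by limma in either set. The share of all genes is not given here for these fits, so this does not show a loss particular to the members. At an unadjusted p under 0.05 it was 1 over all cortical libraries of the series compared, Sox9 (-0.24 ± 0.09 SE). Without the 7 it was 2, S100b (0.12 ± 0.05) and Gjb6 (0.11 ± 0.05).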

How the data were processed

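PolyA RNA of the rat prelimbic cortex was sequenced in 164 labelled samples, of which 130 have a column in the deposited table and 34 were not analysed here. The deposited values are log2(count + 1) per gene for 38354 genes, read from the values since no header states a unit; kallisto 0.48 is named per the submitters' processing notes. Library preparation, build and filters are not given in the sources used here, and gene positions matched RefSeq GRCr8 for 38278 genes. Of the back-transformed low values 61.53% lay within 0.01 of a whole number, so the values are estimated counts. Counts were scaled to 1000000 per library and log2-transformed with a pseudocount of 1, and genes with a mean of at least 1 were tested (15124 in the 119 cortical libraries). No columns were identical, and the highest r between libraries after centring each gene was 0.905.

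Each comparison was a limma 3.58.1 fit in R 4.3.3 over all genes tested, with Benjamini-Hochberg adjusted p under 0.05 as the threshold; correlations used 100000 two-sided permutations (Python 3.11.15, numpy 2.4.6, scipy 1.17.1). The 45 pairs and the relations to 15 gene lists were not adjusted as permutation p-values; the limma values beside them are. Tested on simulated data, slopes of 0.1 and 0.2 on myelin were found in 74% and 98% of 50 genes each, and series differences of 0.2 and 0.4 in 66% and 98%. The simulated residuals were normal and independent between genes, and few genes were changed. In the libraries genes were correlated and 28% of all genes rose with myelin, so these percentages need not hold there.

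The members, lists, limits and tests were chosen with earlier results of these data known. Named genes were all members, the 6 genes with the highest r with Gfap, S100b and Aqp4 (mean of at least 3), and the highest and lowest gene of each list, some of which are not reported here. The alternatives tried were scaling by median of ratios, a pseudocount of 0.1, no filter, a depth covariate, each series alone, all 130 libraries and libraries without low Gad2; those without decimal replicate 15, the single series without low Gad2, and the slope differences on members were chosen after seeing the data.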

Additional observations from a re-analysis of the deposited data

Results flagged for a closer look

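The relation of 4 of the genes to myelin differed between the series by a test of the difference itself: the slope was steeper in the decimal than in the E21DCD and reassigned cortical libraries by 0.2797 log2 units per SD for Aqp4, 0.2489 for Slc1a2, 0.2019 for Slc1a3 and 0.125 for Gja1. For Aldh1l1 the slope on the endothelial score differed by -0.1489, a shallower slope in the decimal series. Of all genes, 30.4% had a steeper slope on myelin in the decimal series, and with all 130 libraries 1 of the 10 members did. The myelin differences also passed without the 7 libraries of low Gad2 and without decimal replicate 15 alone, and the Aldh1l1 difference passed in neither. The series coincide with the kind of animal identifier and with whatever else differed between those animals, which cannot be told apart here.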

How the results depend on the processing

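For the single results with a test, a pseudocount of 0.1 and a depth covariate changed no call, apart from 1 member with a steeper slope on Aqp4 under the latter. Among 743 values of 71 single results under all alternatives, 607 kept direction and side of the threshold, 89 were no longer past it, 14 passed newly and 27 changed sign, the others being counts of members with a steeper slope on Gfap, S100b or Aqp4 in the decimal series, which moved; the cause was not tested.

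With E21DCD and reassigned libraries alone and without low Gad2, 36 of 90 ordered pairs passed, and 8 pairs reached an r of 0.5. In that set 1 member passed on myelin (14.4% of all genes) and 5 on endothelial genes. With the endothelial score held 1 passed on myelin, and 5 the other way. It was 0 for all 4 differences from Gfap or S100b. With the low Gad2 libraries kept it was 4 members on myelin (28.7% of all genes) and 0 higher than S100b on endothelial genes. The decimal series alone gave 1 member on myelin with the endothelial score held (4.22% of all genes). It gave 1 lower than Gfap and 1 lower than S100b on myelin, and 0 for both endothelial differences. Without low Gad2 the decimal series gave 3, 2, 0 and 0, and 37 pairs. Without the 7 libraries 2 members were lower than S100b on myelin (84.7% of all genes) and 0 higher on endothelial genes (0.225%). Between series 7 differed in the myelin slope (8.8%), 0 in the endothelial slope and 6 in level (19.2%), and 31 pairs reached 0.5. All 130 libraries gave 5 members on myelin, 1 and 0 for the series slopes and 1 for series level. Median-of-ratios scaling gave 0 for both endothelial differences, 0 for the endothelial series slope and 1 for series level, and no filter gave 1 for series level. Without decimal replicate 15 there were 0 members higher than S100b on endothelial genes, 0 for the endothelial series slope and 6 for series level (10.5% of all genes). The myelin covariate left 0, with or without the 7. Shares of all genes are given for only some of these counts and differed between settings. A lower count without its share thus does not show a loss particular to the members.

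Signs changed as follows. With the myelin covariate the series difference was -0.0458 for Gfap, -0.0685 for Gja1 and -0.0025 for Mlc1, and without the 7 as well -0.0401 for Gfap and -0.0142 for Gja1; with all libraries that of Gjb6 was -0.0021. In the E21DCD and reassigned libraries the myelin slope was -0.0165 for Aqp4, -0.0549 for Slc1a2 and -0.0275 for Slc1a3, and without low Gad2 -0.0157, -0.0222 and -0.0002, with -0.0507 for Sox9. With all libraries the Gjb6 slope on myelin was -0.0683, and -0.1454 with the endothelial score held (-0.0062 in the decimal series without low Gad2). The difference of Slc1a2 from S100b on myelin was 0.0314 in the decimal series and 0.0761 without low Gad2. In the E21DCD and reassigned libraries r was -0.1172 for Slc1a2 with S100b, and without low Gad2 -0.1527, and -0.0733 for Gfap with Slc1a2. The r of Slc1a3 with Sox9 was 0.2862 without the 7, 0.0448 in the decimal series, 0.0328 in all libraries, 0.0773 without decimal replicate 15, and 0.3812 and 0.1473 in the decimal and the other libraries without low Gad2.

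No paired analysis was possible because no replicate number pairs libraries across the series. Every member had at least 237 counts in every library. Over the 112 libraries Sox9 had r = 0.28 and rho = 0.16 with depth (permutation p = 0.00242 and 0.0979). With the number of genes above 0 it had r = 0.41 and rho = 0.36 (permutation p = 1e-05 and 7e-05). Slc1a2 had r = 0.38 and rho = 0.27 with that number (permutation p = 0.0001 and 0.00362). Gja1 had 0.37 and 0.28 (permutation p = 9e-05 and 0.00248), and Aqp4 0.37 and 0.29 (permutation p = 0.00015 and 0.00186). Over the 119 libraries r with that number ran from -0.20 for S100b to 0.44 for Slc1a2 and Aqp4, with 0.43 for Slc1a3. The part of depth and of the number of genes in the results was not tested.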
